A study of Nasonia vitripennis with 76 samples.

Results

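*oskar* and *nanos*, the germ plasm genes that the tables list by name, are described here over every group of the series. They are 2 of the 14621 genes in the deposited count table, and each has a single entry under its own symbol in the counts and in the TPM values (a level scaled to the length of the transcript and to the library total). The series profiles poly-A RNA of the parasitoid wasp *Nasonia vitripennis*, taken from abdomens and from heads, in 76 libraries that fall into 16 groups. Every wasp belonged to the TRA line, which was founded by knocking down *transformer* and in which females can be triploid and males diploid, and all were sampled 1 day after emergence. Females of generation F14 were triploid (3N) or diploid (2N), as were females of generation F2. Males of generation F15 were diploid (2N) or haploid (1N), as were males of generation F3. Each combination of sex, generation and ploidy was sampled as abdomen and as head, with 5 libraries a group, but 3 in F2 2N female abdomens and 3 in F3 2N male abdomens. No line outside TRA is part of the comparisons, so every difference below is between wasps of the same artificially founded line. Whether libraries of 1 group are from different wasps is not stated in the labels, so the p-values measure only the spread between these libraries, which may be technical.

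Germ plasm is the cytoplasm at the posterior pole of an insect egg that directs the cells inheriting it to become germ cells. In *Drosophila*, Oskar protein nucleates germ plasm assembly, and *nanos* messenger RNA is anchored there and translated into a repressor of translation that patterns the abdomen and protects germ cell fate. Both transcripts are made in the nurse cells of the ovary and loaded into the oocyte. In *Nasonia*, *oskar* is likewise needed for germ plasm, which in this wasp takes the form of a dense body called the oosome. An adult female abdomen holds the ovaries, so its RNA contains that of developing oocytes. In bulk RNA of this kind, fewer ovarian cells and less transcript per cell cannot be told apart, and because levels are relative to each library, a change in total RNA with ploidy cannot be seen.

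Library totals lay between 14.21 and 60.12 M counts (median 21.59 M), and between 23.12 and 30.37 M in female abdomens. No pair of libraries held identical counts. Library A34, labelled as an F2 3N female head, went against its label. It held 823 TPM of *oskar* and 345 TPM of *nanos*, its long-wavelength opsin *Lop1* stood at 0 TPM, and across genes its profile correlated at 0.996 with the mean of F2 3N female abdomens and at 0.706 with the mean of the other heads of its own group. A34 was left out of every comparison below, and values with it in its labelled group are given where they change a call. In the other libraries *Lop1* followed the labelled tissue, at 0 to 2.64 TPM in the 18 female abdomens and at 964 TPM or more in the 39 other heads.

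*oskar* and *nanos* were abundant in every female abdomen, and elsewhere *oskar* was far lower and *nanos* mostly at 0. *oskar* averaged 761 ± 76.8 TPM in F14 3N, 636 ± 99.6 TPM in F14 2N, 764 ± 61.4 TPM in F2 3N and 845 ± 86.6 TPM in F2 2N female abdomens (SD, n = 5, 5, 5 and 3). By mean TPM it held rank 186, 221, 184 and 172 of 14613 genes in those same groups. Outside them its group means were highest in F2 3N female heads, at 18.4 ± 11.9 TPM (n = 4; rank 6127), and in F3 2N male heads, at 17.6 ± 9.09 TPM (n = 5; rank 6115). *nanos* averaged 384 ± 143 TPM in F14 3N, 381 ± 39.2 TPM in F14 2N, 421 ± 44.3 TPM in F2 3N and 477 ± 41.4 TPM in F2 2N female abdomens, at rank 355, 352, 317 and 285. Both genes had the same order of groups, highest in F2 2N, then F2 3N, F14 3N and F14 2N, and in that order each group overlapped its neighbour.

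No library other than A34 came near the level of the female abdomens. The lowest *oskar* value in a female abdomen was 555 TPM, and the highest in the 57 libraries left beside A34 was 34.5 TPM. For *nanos* the lowest female abdomen had 162 TPM, and the highest of the 57 had 15.4 TPM. Among those 57 libraries *oskar* was found in all, at 8 to 385 counts, whereas *nanos* had 0 counts in 41, from 1 to 4 counts in 12 and more in 4.

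**Figure D1:**
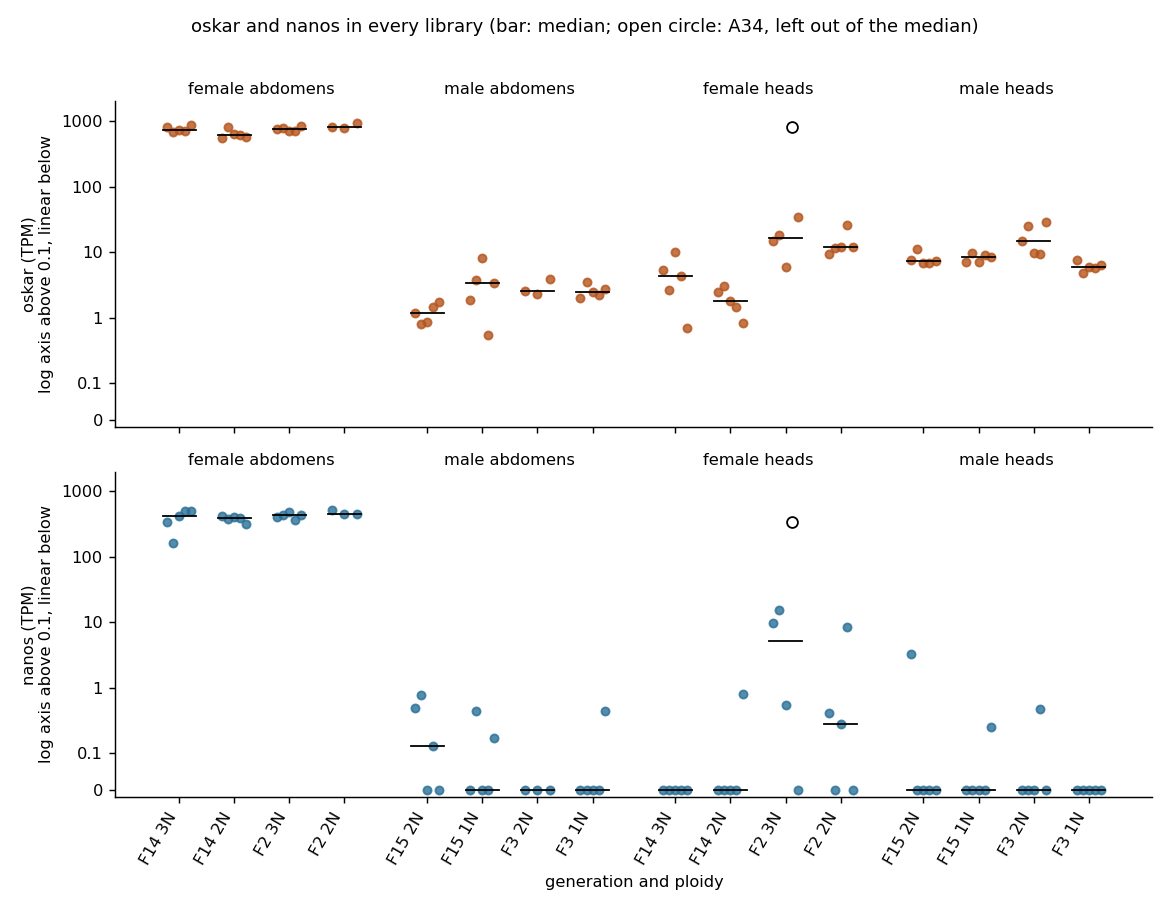
TPM of *oskar* (upper panel) and *nanos* (lower panel) in each of the 76 libraries, by tissue and sex, then generation and ploidy; the axis is logarithmic above 0.1 TPM and linear below, bars are group medians and the open circle is A34. All female abdomens lie at 555 TPM or more for *oskar* and at 162 TPM or more for *nanos*, while the 57 others, A34 aside, reach at most 34.5 and 15.4 TPM.

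In the female abdomens, *oskar* stood at 802, 679, 739, 714 and 873 TPM in F14 3N libraries A56 to A60. It stood at 555, 802, 640, 617 and 564 TPM in F14 2N libraries A66 to A70. In TPM, library A67 lay within the range of the triploids, and the other 4 F14 2N libraries lay below every F14 3N library. In CPM (counts scaled to the library total) A70 also lay within that range, at 547, above A59 at 516. In generation F2, *oskar* stood at 771, 794, 708, 701 and 848 TPM in 3N libraries A36 to A40, and at 821, 773 and 941 TPM in 2N libraries A26 to A28. The highest F2 2N value, in A28, was above all F2 3N values, but the other 2 fell among them.

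*nanos* stood at 335, 162, 414, 500 and 508 TPM in the F14 3N libraries, against 418, 377, 407, 385 and 317 TPM in the F14 2N libraries. The triploids of F14 enclosed the whole range of the diploids, because A57 was far below and A59 and A60 were above them. In F2, *nanos* stood at 403, 434, 480, 360 and 429 TPM in 3N abdomens, against 525, 453 and 452 TPM in 2N abdomens. Apart from F14 3N, the coefficient of variation of *nanos* was from 8.69% to 10.5%, but it was 37.2% in F14 3N, where 75.5% of genes at 5 TPM or more had a lower one.

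**Figure D2:**
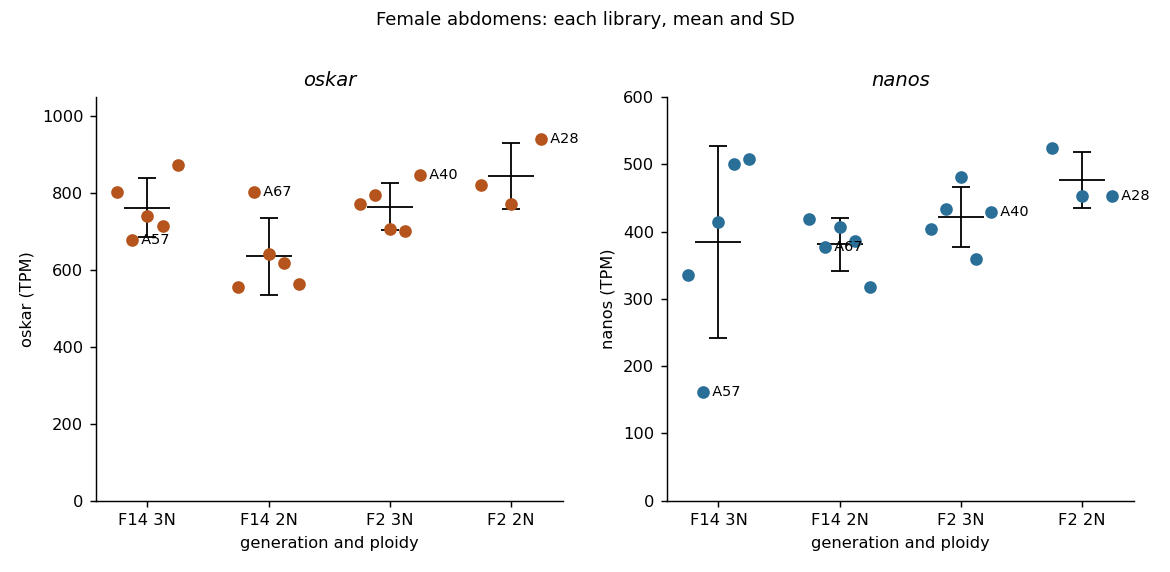
TPM of *oskar* (left) and *nanos* (right) in each female abdomen library, with the mean and SD of each group; the libraries that change a call when left out are named. *oskar* is lowest in F14 2N, apart from A67 at 802 TPM, and A57 stands alone at 162 TPM of *nanos*.

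No difference between triploid and diploid female abdomens passed the test over all genes for either gene. The question is whether an added genome copy changes germ plasm transcripts, and it was tested with edgeR's quasi-likelihood test in one fit over the 4 groups, with Benjamini-Hochberg adjustment over 10855 genes. In F14, the 3N minus 2N difference of *oskar* was 0.29 ± 0.12 on the log2 scale (SE; 95% interval 0.03 to 0.55; adjusted p = 0.166). *nanos* differed by 0.006 ± 0.17 in F14 (interval -0.36 to 0.37; adjusted p = 0.985), a value whose sign depends on the scaling, as given in the closing section. In F2, the 3N minus 2N difference was -0.24 ± 0.14 for *oskar* (interval -0.54 to 0.06; adjusted p = 0.441) and -0.30 ± 0.20 for *nanos* (interval -0.72 to 0.11; adjusted p = 0.491).

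Few genes of any kind passed that test. In F14, 6 of 10855 genes (0.0553%) were called between 3N and 2N at an adjusted p under 0.05, with edgeR, against 628 with DESeq2. In F2, 0 genes (0%) were called with edgeR, while 1635 had an unadjusted p under 0.05, and DESeq2 called 386. With either tool, neither *oskar* nor *nanos* was among the genes called. Leaving out A67, the F14 2N library with the highest *oskar*, moved the F14 difference of *oskar* to 0.41 with an adjusted p of 0.0405.

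The ploidy difference of *oskar* had opposite signs in the 2 generations. The F14 difference minus the F2 difference was 0.53 ± 0.19 for *oskar* (interval 0.14 to 0.93; adjusted p = 0.0703) and 0.31 ± 0.26 for *nanos* (interval -0.24 to 0.86; adjusted p = 0.404), and neither passed, where 11.3% of all genes did. For *oskar* the adjusted p was 0.0172 without A67, 0.0410 without A40 and 0.0490 without A57. For *nanos* the value was 0.47 with an adjusted p of 0.0292 without A57.

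Between generations, *oskar* was lower in F14 than in F2 among diploid abdomens. It averaged 636 ± 99.6 TPM in F14 2N (n = 5) and 845 ± 86.6 TPM in F2 2N (n = 3), a log2 difference of -0.45 ± 0.14 (interval -0.75 to -0.15; adjusted p = 0.0170). Of the F14 2N libraries, 4 lay below every F2 2N library, and A67 lay between the lowest and the middle of them. In this comparison 45.9% of all genes were called, 25.2% lower and 20.7% higher, so *oskar* is 1 of many genes called there. *nanos* was at 317 to 418 TPM in F14 2N and at 452 to 525 TPM in F2 2N, which do not overlap, but its difference of -0.40 ± 0.20 did not pass (interval -0.81 to 0.02; adjusted p = 0.107). Among triploids, F14 minus F2 was 0.08 ± 0.12 for *oskar* (adjusted p = 0.719) and -0.09 ± 0.17 for *nanos* (adjusted p = 0.804), where 10.7% of all genes were called.

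The *oskar* call in diploids depended on the processing and on 1 library. It was lost with no filter on low counts (-0.35; adjusted p = 0.0507), a setting that moves every gene's difference by 0.099 through the scaling factors, and in a fit of the 2 groups alone (-0.33; adjusted p = 0.0927). It was also lost without A28 (-0.38; adjusted p = 0.0662). Over the 7 settings with all libraries the difference lay between -0.45 and -0.33. The labels name no batch, so generation and any batch that went with it cannot be told apart.

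**Figure D3:**
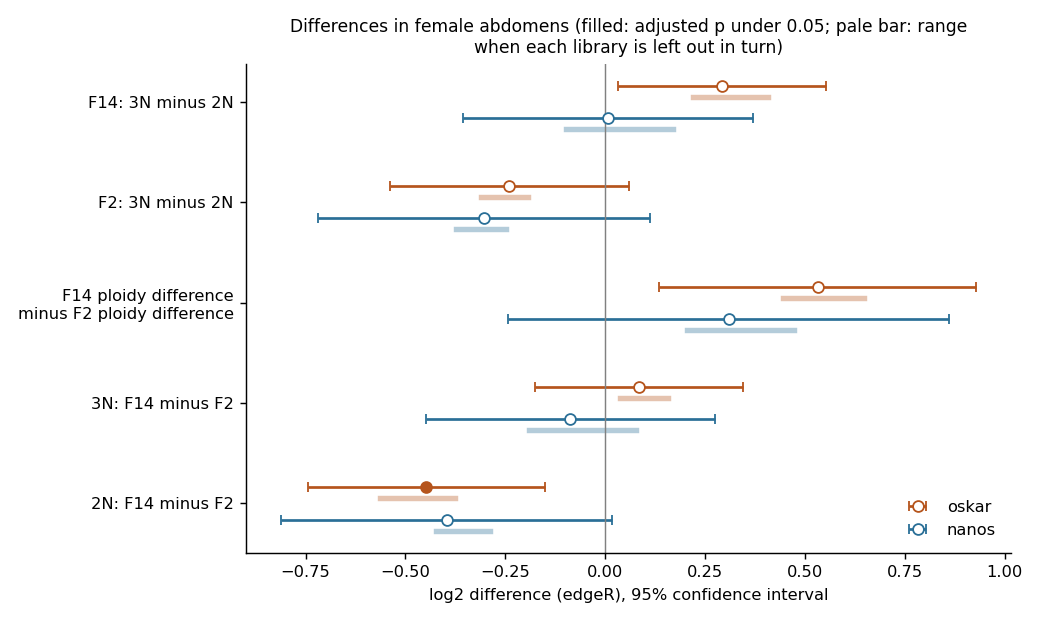
Log2 differences of *oskar* and *nanos* between groups of female abdomens, with 95% confidence intervals from edgeR; filled points have an adjusted p under 0.05 and pale bars give the range when each library is left out in turn. The filled point is *oskar* in diploids, F14 minus F2, at -0.45; the F14 ploidy difference minus the F2 one lies at 0.53 for *oskar*, its open circle marking an adjusted p above 0.05.

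Other markers moved in the same comparison. Genes of dividing and meiotic cells, of which 9 of 18 sought were in the tables, all were lower in F14 than F2 diploid abdomens. Of these 9, 8 were called lower, where 25.2% of all genes were. The median difference of the 9 was -0.91, against 0.002 over all genes. Among them were *Gaj*, listed as a synonym of Mnd1, *Cdk2*, a kinase of the cell cycle, and *Hop2*, which acts with Mnd1 in meiotic recombination. *Hop2* averaged 32.7 ± 6.36 TPM in F14 2N and 97.4 ± 35.2 TPM in F2 2N, a difference of -1.59 ± 0.27 (adjusted p = 6.3e-04). *Cdk2* averaged 28.7 ± 2.33 TPM in F14 2N and 53.5 ± 25.4 TPM in F2 2N (-0.91 ± 0.22; adjusted p = 0.0045). Without A28, 4 of the 9 stayed called lower and their median was -0.49.

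The summed level of these 9 genes was 857 to 1090 TPM in the F14 2N abdomens, against 1539, 1397 and 2756 TPM in A26, A27 and A28 of F2 2N. Muscle markers ran the other way in their sum, at 999 to 1645 TPM in F14 2N and 509 to 672 TPM in F2 2N, although of the tropomyosin genes *Tm1* and *Tm2* 1 was called higher and 1 lower. The 4 markers of fat body and immunity summed to 178 to 1270 TPM in F14 2N and to 73.6 to 115 TPM in F2 2N, with 3 called higher and 1 lower, beside the 20.7% and 25.2% of all genes. The part of these tissues in the *oskar* difference was not tested. *Lop1*, the eye marker, reached at most 0.13 TPM in these 2 groups.

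No egg patterning gene was called beside *oskar*. Of the maternal axis patterning genes, 5 of 18 sought were in the tables, and 0 of 5 were called between F14 and F2 diploids or between F14 and F2 triploids with edgeR, where 45.9% and 10.7% of all genes were. At an unadjusted p under 0.05 there were 0 in diploids and 2 in triploids, where 54.2% and 26% of all genes were. DESeq2 called 0 and 1 of them, and 5388 and 1794 genes in all. Without A57, 2 of 5 were called higher in triploids. Their medians were 0.21 in diploids, against 0.002 over all genes, and 0.25 in triploids, against 0.042. The triploid median was -0.003 and -0.005 with limma on log2(TPM + 1) and log2(TPM + 0.1). *Gt*, the gap gene giant whose messenger RNA is maternal in *Nasonia*, averaged 303 ± 99.3 TPM in F14 2N and 248 ± 39.8 TPM in F2 2N (0.21 ± 0.34; adjusted p = 0.629). Among triploids *Gt* averaged 388 ± 193 TPM in F14 and 217 ± 38.9 TPM in F2 (0.90 ± 0.30; adjusted p = 0.0612). *Cad*, caudal, a gene of posterior patterning, averaged 89.1 ± 24.5 TPM in F14 2N and 73.9 ± 26.8 TPM in F2 2N (0.22 ± 0.33; adjusted p = 0.605). Of the germ plasm and germ line list, 3 of 36 names sought were matched, *oskar*, *nanos* and *Egl*. *Egl* was not called in any of the 5 comparisons of female abdomens and averaged 71.9 ± 5.78 TPM in F14 2N and 80.3 ± 30.4 TPM in F2 2N (-0.24 ± 0.17; adjusted p = 0.235).

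Between 3N and 2N abdomens, no gene of the axis or dividing lists was called in either generation with edgeR. Of all genes, it called 6 of 10855 (0.0553%) in F14 and 0 in F2. At an unadjusted p under 0.05 there were 5 of 9 dividing genes in F14 and 1 of 9 in F2, where 25.7% and 15.1% of all genes were. DESeq2 called 1 dividing gene in each generation, and 628 and 386 genes in all. For the axis genes both counts were 0 in both generations. Leaving out A57 brought the dividing genes called higher in F14 to 6 of 9, and leaving out A67 to 2 of 9. In F14 the dividing genes had a median of 0.47, against 0.070 over all genes, and in F2 a median of -0.22, against -0.043, which was 0.004 without A28. The axis genes had a median of 0.33 in F14 and of -0.17 in F2, and the F2 one was 0.36 without A28 and 0.014 and 0.023 with the same limma settings. The F14 minus F2 ploidy difference was called higher for 2 of 9, where 5.78% of all genes were called higher. These were *RPA2*, a subunit of the protein that coats single-stranded DNA (0.71 ± 0.16; adjusted p = 0.0245), and *recQ1*, a DNA helicase (0.69 ± 0.21; adjusted p = 0.0444), both named after their values were seen. The count was 7 of 9 without A57 and 0 of 9 without A27, and it was 1 without any 1 of 11 other libraries. With no filter that comparison called 124 genes higher and 330 lower, against 627 and 596 with it. Among triploids, 3 of 9 dividing genes were called lower in F14 than in F2, *Gaj*, *Cdk2* and *Hop2*, where 4.61% of all genes were, and this count was 1 when any of A56, A58, A37, A38 or A39 was left out. *Gaj* averaged 29.9 ± 0.68 TPM in F14 3N and 44.7 ± 2.22 TPM in F2 3N (-0.46 ± 0.10; adjusted p = 0.0085). With no filter on low counts that comparison called 525 genes higher and 733 lower, against 662 and 500 with it.

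The genes that lie next to *oskar* bear on how its counts can be read. In the RefSeq table its annotated span overlaps those of 10 other genes, 9 of which enclose it, and at its far end it overlaps that of *Rbm39*, which encodes an RNA-binding protein of splicing. The span of *nanos* overlaps none. Whether reads were shared between *oskar* and its overlapping partners by the authors' estimation was not tested. *Rbm39* averaged 145 ± 4.81 TPM in F14 2N and 187 ± 34.01 TPM in F2 2N abdomens, a fall of 0.40 ± 0.10 (log2 difference -0.40; adjusted p = 0.0052) beside that of *oskar*. Among triploids it differed by 0.02 ± 0.09 (adjusted p = 0.926). *LOC100120509*, the neighbour on the other side, averaged 13.5 ± 1.52 TPM in F14 2N and 11.8 ± 1.87 TPM in F2 2N (adjusted p = 0.344). The neighbours of *nanos*, *LOC100116237* and *LOC100116269*, had group means of 8.22 to 11.9 TPM and 0.038 to 0.234 TPM in female abdomens, far under *nanos* itself.

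No difference in the balance of the 2 transcripts passed between groups of female abdomens. *nanos* per *oskar* in TPM was 0.418, 0.239, 0.561, 0.701 and 0.582 in F14 3N, and 0.753, 0.470, 0.636, 0.625 and 0.562 in F14 2N. It was 0.523, 0.546, 0.679, 0.513 and 0.506 in F2 3N, and 0.639, 0.587 and 0.481 in F2 2N. Apart from A57 at 0.239, every library lay between 0.418 and 0.753. The log2 ratio differed by -0.36 between 3N and 2N in F14 (exact permutation p = 0.270) and by -0.04 in F2 (exact permutation p = 0.750). Between F14 and F2 it differed by 0.09 in diploids (exact permutation p = 0.643) and by -0.23 in triploids (exact permutation p = 0.532). All are two-sided, each adjusted p over the 4 comparisons was 0.750, and the smallest p possible was 0.0079 for 5 against 5 libraries and 0.0179 for 5 against 3.

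A57 was low in *nanos* and in the axis and dividing genes, and in TPM only slightly under the others in *oskar*. It held 162 TPM of *nanos*, against 335 to 508 TPM in the other 4 F14 3N abdomens, and 679 TPM of *oskar*, against 714 to 873 TPM. In CPM its *oskar* was not under the others, at 705 against 516 to 729, while its *nanos* was, at 44.6 against 75.3 to 111. Its 5 axis genes summed to 263 TPM, against 633 to 1283 TPM in the other 4, and its 9 dividing genes to 543 TPM, against 1206 to 1957 TPM. Its muscle markers summed to 1322 TPM, against 739 to 1289 TPM in the other 4.

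Within groups, no relation between *nanos* and *oskar* passed, and the sign of r changed with the libraries used. Over the 18 female abdomens, with each value taken as its log2 TPM deviation from the group mean, *nanos* and *oskar* correlated at r = 0.285 (permutation p = 0.279) and rho = 0.183 (permutation p = 0.505), and at r = -0.10 without A57 and A60, the 2 libraries farthest from the median of *nanos*. Within F14 r was 0.337 (n = 10), and within F2 0.041 (n = 8). The dividing genes had r = 0.772 (permutation p = 0.0501) and rho = 0.317 (permutation p = 0.294) with *nanos*. That relation fell to r = 0.312 without A57 and A60, and was 0.915 within F14 and -0.149 within F2, so it rests on F14 and on A57. With *oskar* the dividing genes had r = 0.475 (permutation p = 0.0380), rho = 0.577 (permutation p = 0.0255), 0.454 without A67 and A60, and 0.455 and 0.544 within F14 and F2. Of the 7 relations tested, with the axis, dividing and muscle genes among them, none passed adjustment over the 7 (lowest adjusted p = 0.117 for r and 0.178 for rho), and permutations were made within groups.

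**Figure D4:**
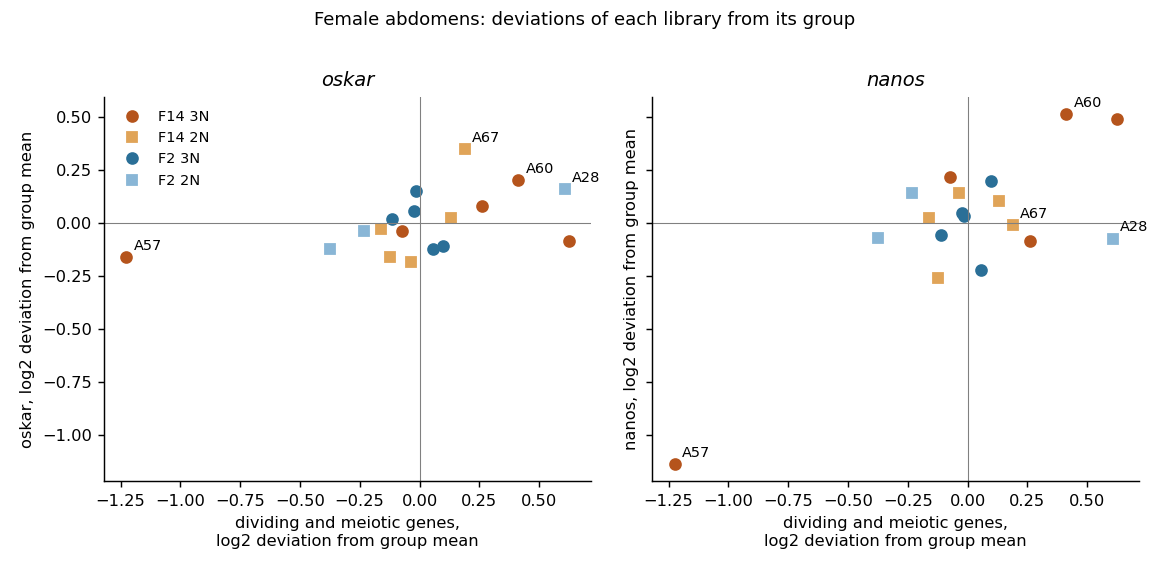
Each female abdomen as its log2 deviation from its group mean, for the summed TPM of the 9 dividing and meiotic genes (horizontal axis) and for *oskar* (left) or *nanos* (right). A57 lies at the lower left for *nanos*, apart from the other 17 libraries, and near the other libraries for *oskar*.

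At 2N, female abdomens exceeded male abdomens by far in *oskar* and in *nanos*. The question is how much of either transcript belongs to the sex that makes eggs, with females 1 generation before the males they are set against. *oskar* averaged 636 ± 99.6 TPM in F14 females and 1.21 ± 0.40 TPM in F15 males (n = 5 each), a log2 difference of 8.71 ± 0.45 or 420-fold (adjusted p = 2.3e-17). It averaged 845 ± 86.6 TPM in F2 females and 2.91 ± 0.85 TPM in F3 males (n = 3 each), a log2 difference of 7.91 ± 0.55 or 241-fold (adjusted p = 5.7e-14). Between abdomens of the sexes 75.4% of all genes were called in the late and 81.5% in the early generations, with 36.9% and 38.9% called higher in females.

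*nanos* had 11074 counts over the 5 F14 2N female abdomens and 6 counts over the 5 F15 2N male abdomens. In CPM (counts scaled to the library total) that is a 2483-fold ratio, with a 95% interval of 1141 to 6768 for counting error only, and 3 of the 6 counts are in A87. In the early generations it had 8828 counts over 3 F2 2N female abdomens and 0 counts in 66.64 M over 3 F3 2N male abdomens. Taking 3 counts over the group as the floor, a count of 0 stands for up to 0.045 CPM there. By that floor *nanos* was at least 2417-fold higher in the females. The upper end of the 95% counting interval in these males is higher, at 0.055 CPM, so that bound would be lower by the interval. All 5 axis genes and all 9 dividing genes were also called higher in females than in males, in both comparisons.

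Abdomens exceeded heads in females of all 4 kinds. For *oskar* the log2 difference was 7.56 ± 0.50 in F14 3N, 8.44 ± 0.53 in F14 2N, 5.54 ± 0.50 in F2 3N and 6.25 ± 0.48 in F2 2N, which is 189-, 347-, 46.7- and 76.3-fold (adjusted p at most 9.8e-12). Of all genes, 79.2%, 78.1%, 80% and 79.5% were called in these 4 comparisons in that order, and 40.9%, 41.3%, 39.4% and 39.7% were called higher in abdomens. For *nanos*, 11074 counts in F14 2N abdomens stood against 3 counts in heads, a 2368-fold ratio (counting interval 810.0 to 11483), and those 3 counts are all in A65. In F14 3N, 10374 counts stood against 0, so *nanos* was at least 2248-fold higher in abdomens. In F2 the ratios were 79.4-fold in 3N (64.9 to 98.4) and 434-fold in 2N (307 to 635), where F2 heads held 94 counts in 3N and 32 counts in 2N. Of the 32 counts 29 are in A24, and the fitted log2 difference in 2N was 8.52 ± 0.83 with A24 and 11.555 without it. In 3N it was 6.23 ± 0.78, and 7.08 without A32, which holds 55 of the 94 counts. With A34 kept in its labelled group the 3N differences were 2.30 for *nanos* and 1.90 for *oskar*, and without A35 that of *oskar* was 6.16.

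Female heads of the late generation held less *oskar* than those of the early one. In 2N heads *oskar* stood at 2.49, 3.03, 1.80, 1.46 and 0.83 TPM in F14, against 9.44, 11.4, 12.2, 25.7 and 11.97 TPM in F2, with no overlap. The log2 difference was -2.60 ± 0.57 (interval -3.80 to -1.40; adjusted p = 8.9e-04), where 57.2% of all genes were called. In 3N heads it stood at 5.44, 2.67, 10.1, 4.35 and 0.70 TPM in F14, against 15.1, 18.2, 5.85 and 34.5 TPM in F2, a difference of -2.01 ± 0.57 (adjusted p = 0.0139), where 26.8% of all genes were called. With A34 kept in its labelled group the adjusted p in 2N was 0.0803, and in a fit of the 2 groups alone that in 3N was 0.0962. The 3N difference was -1.40 without A35 (adjusted p = 0.0418) and -5.63 with A34 kept (adjusted p = 0.0054). *Rbm39* did not fall in these heads: it averaged 128 ± 11.4 TPM in F14 2N and 98.7 ± 11.4 TPM in F2 2N, a rise of 0.47 ± 0.09 (adjusted p = 1.7e-04). *cycB*, cyclin B, a mitotic regulator chosen here after its values were seen, had 0 to 7 counts in F14 2N heads and 12 to 518 in F2 2N heads. The other dividing genes did not all follow it. Of the 8 dividing genes tested there, 5 were called lower and 2 higher, where 3381 and 2904 of 10987 genes were. The dividing genes summed to 88.4 to 124 TPM in F14 2N heads and to 77.6 to 131 TPM in F2 2N heads, which overlap. Muscle markers summed to 1755 to 3466 TPM in F14 2N heads and to 649 to 719 TPM in F2 2N heads. Of their 2 genes, *Tm1* and *Tm2*, 1 was called higher (1.91) and the other was not called (-0.009). The part of other tissue in the *oskar* difference was not tested.

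No ploidy difference of *oskar* was called in female heads. The 3N minus 2N difference was 1.13 ± 0.56 in F14 (adjusted p = 0.260), where 3.57% of all genes were called, and 0.53 ± 0.55 in F2 (adjusted p = 0.607), where 5.82% were. The F2 difference was -0.08 without A35, the head library with the most *oskar*. The change of the ploidy difference between generations was 0.59 ± 0.78 (adjusted p = 0.673), where 6.47% of all genes were called. *nanos* was not tested between groups of heads, or of male abdomens, by ploidy or generation, since its counts there were under the filter.

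The few counts of *nanos* outside female abdomens were gathered in 4 heads. In F2 3N heads A31 held 37 counts, A32 55, A33 2 and A35 0, and in F2 2N heads A24 held 29 counts while the other 4 held 0 to 2. Among male heads A81 of F15 2N held 12 counts, and the other 19 held 0 to 2. *nanos* counts per *oskar* count were 0.173 in A31, 0.223 in A32, 0.0874 in A24 and 0.122 in A81, against 0.0632 to 0.197 in the 18 female abdomens. *cycB*, chosen after its values were seen, and the sums of the dividing and axis genes were set beside these counts. The 9 dividing genes summed to 131 TPM in A24, against 77.6 to 88.2 TPM in the other 4 heads of its group. The same sum was 87.15 TPM in A31 and 92.7 TPM in A32, against 86.15 in A33 and 86.4 in A35. In A81 it was 101 TPM, within the 91.4 to 116 TPM of the other 4. *cycB* had 518 counts in A24, against 12 to 40 in the other 4 F2 2N heads. It had 71 counts in A31 and 103 in A32, against 24 in A33 and 0 in A35 of the same group, and 9 in A81, against 0 to 13 in the other 4 F15 2N male heads. The axis genes summed to 51.1 TPM in A24, against 20.3 to 22.97 TPM in the other 4 heads of its group. They summed to 27.1 TPM in A31 and 29.4 TPM in A32, against 27.3 in A33 and 22.8 in A35, and to 21.7 TPM in A81, within the 17.97 to 24.6 TPM of the other 4.

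In 3 heads high *oskar* came with 0 counts of *nanos*. A35, with the most *oskar* outside female abdomens at 34.5 TPM, had 0 counts of *nanos* and of *cycB*. Male heads A15A and A12 held 29.3 and 25.1 TPM of *oskar* with 0 counts of *nanos*. A count of 0 allows up to 0.189 CPM of *nanos* in A35, taking 3 counts in the library. Whether reads of an overlapping gene, other tissue or another library contribute to the *oskar* of heads was not tested.

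**Figure D5:**
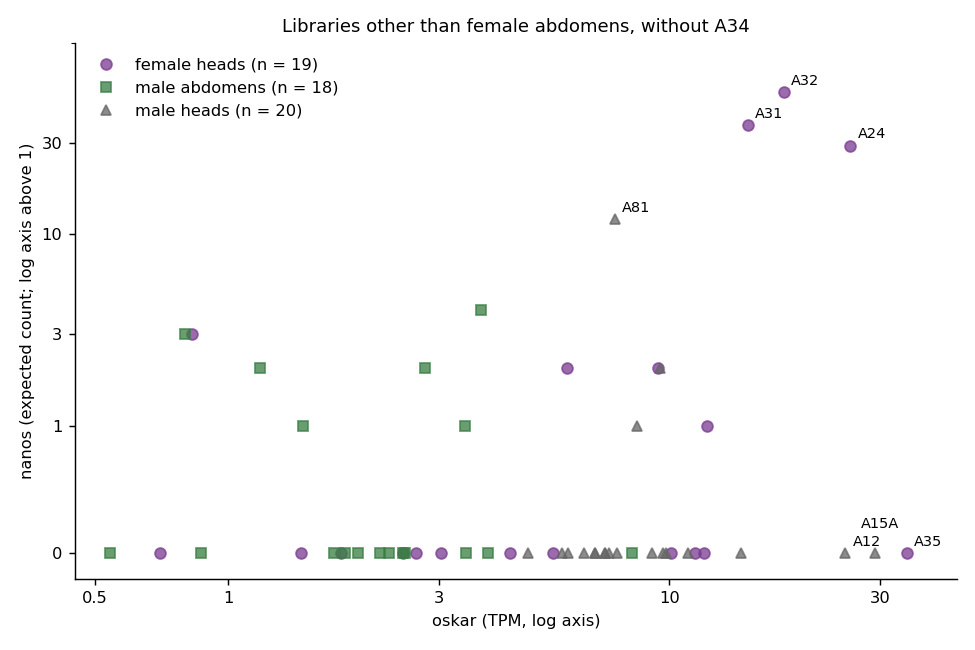
*oskar* in TPM (horizontal, logarithmic) and *nanos* in expected counts (vertical, logarithmic above 1) in the 57 libraries other than female abdomens, without A34. The 4 libraries above 4 counts of *nanos* are the heads A31, A32, A24 and A81, and 41 libraries lie at 0, among them A35 with the highest *oskar*.

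In male heads, *oskar* was higher in diploids than in haploids in F3, and was not called in F15. In F3 it stood at 14.6, 25.1, 9.69, 9.54 and 29.3 TPM in 2N heads, against 7.61, 4.78, 5.90, 5.70 and 6.40 TPM in 1N heads. The lowest diploid lay above the highest haploid, and the log2 difference was 1.33 ± 0.30 (interval 0.71 to 1.95; adjusted p = 0.0071), where 12% of all genes were called. In F15 it stood at 7.52, 11.04, 6.78, 6.80 and 7.30 TPM in 2N heads, against 7.16, 9.84, 7.15, 9.14 and 8.46 TPM in 1N heads, a difference of -0.265 ± 0.29 (adjusted p = 0.698), where 3.25% of all genes were called. The F15 difference minus the F3 difference was -1.59 ± 0.42 (adjusted p = 0.0239), where 8.64% of all genes were called.

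Between generations, *oskar* was called in diploid male heads and not in haploid ones. *oskar* averaged 7.89 ± 1.79 TPM in F15 2N and 17.6 ± 9.09 TPM in F3 2N heads, a difference of -1.23 ± 0.30 (adjusted p = 0.0057), where 30.2% of all genes were called, and only A11, A12 and A15A of F3 stood above every F15 2N head. In haploids it averaged 8.35 ± 1.20 TPM in F15 and 6.08 ± 1.04 TPM in F3 (0.36 ± 0.30; adjusted p = 0.346), where 42.1% of all genes were called. In a fit of the F3 groups alone the 2N minus 1N difference was 1.34 with an adjusted p of 0.0590. *Rbm39* differed by -0.01 ± 0.09 between F3 2N and 1N heads (adjusted p = 0.956). Muscle markers summed to 314 to 1766 TPM in F3 2N heads and to 741 to 2704 TPM in F3 1N heads. Their 2 genes differed by -1.10 and 0.048 with neither called, and the part of muscle was not tested. None of the tested axis or dividing genes was called between F3 2N and 1N heads with edgeR, with DESeq2 or at an unadjusted p under 0.05, 0 of 3 and 0 of 8. Of all genes, 12% were called there with edgeR and 27.8% had an unadjusted p under 0.05, and DESeq2 called 1862. A count of 0 among so few genes therefore says little.

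In male abdomens *oskar* stood at 2.52, 2.32 and 3.88 TPM in F3 2N, against 3.47, 2.49, 2.21, 2.79 and 1.97 TPM in F3 1N (0.455 ± 0.55; adjusted p = 0.528), where 40.9% of all genes were called. In F15 it stood at 1.18, 0.80, 0.87, 1.48 and 1.74 TPM in 2N, against 1.84, 3.74, 8.22, 0.54 and 3.44 TPM in 1N. The F15 haploids enclosed the diploids, and the log2 difference of -1.49 ± 0.49 did not pass with edgeR (adjusted p = 0.101), where 4.11% of all genes were called, but did with DESeq2 (-1.49; adjusted p = 0.0321). Without A79, the haploid with 0.54 TPM, it was -1.76 with an adjusted p of 0.0131, and without A78, the haploid with 8.22 TPM, it was -0.88 with an adjusted p of 0.231. *cycB*, chosen after its values were seen, had 82, 193, 246, 0 and 103 counts in the same F15 haploids, with 0 in A79. It had 17, 10, 32, 66 and 11 counts in the F15 diploids. In TPM that is 0 to 9.14 in the haploids and 0.17 to 1.12 in the diploids. Of the 9 dividing genes 0 were called between them, with a median of -0.235, against -0.004 over all genes. These genes summed to 54.2 to 115 TPM in the haploids and to 49.3 to 58.7 TPM in the diploids. The part of dividing cells in the *oskar* difference was not tested.

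The change of that ploidy difference between generations was -1.94 ± 0.73 (adjusted p = 0.0657), where 21.5% of all genes were called, and its adjusted p was 0.0436 with DESeq2 and 0.0107 without A79. Without A78 it was -1.34 with an adjusted p of 0.123. Between generations the male abdomens were not called either, with F15 minus F3 at -1.25 ± 0.55 in 2N (adjusted p = 0.0771), where 39.7% of all genes were called, and at 0.69 ± 0.48 in 1N (adjusted p = 0.259; 0.083 without A78), where 45.7% were. In a fit of the 2 diploid groups alone the adjusted p was 0.0347.

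Between heads of the sexes at 2N, *oskar* was called in the late generations and not in the early ones. It averaged 1.92 ± 0.86 TPM in F14 female heads and 7.89 ± 1.79 TPM in F15 male heads, a difference of -1.81 ± 0.47 (adjusted p = 0.0016) with no overlap, where 52.7% of all genes were called. With A34 kept in its labelled group the adjusted p was 0.0875. It averaged 14.2 ± 6.56 TPM in F2 female heads and 17.6 ± 9.09 TPM in F3 male heads (-0.44 ± 0.43; adjusted p = 0.412), where 44.6% were called. The difference between these 2 differences was not tested. *nanos* was not called in either, with 3 counts over F14 female heads and 12 over F15 male heads (adjusted p = 0.450), and 32 counts over F2 female heads and 2 over F3 male heads (adjusted p = 0.0689).

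Many genes share the distribution of *oskar* and *nanos* over groups. Over the 16 group means of log2(CPM + 1), without A34, 916 of 10628 genes correlated with *oskar* at r above 0.95 and 1230 with *nanos*. These points share the contrast of female abdomens with all other groups. Nearest to *oskar* were *LOC100116172* (r = 0.993), *LOC100120069* (0.993) and *LOC100123699* (0.992), and nearest to *nanos* were *LOC100679358* (0.998), *LOC100679868* (0.998) and *LOC100123833* (0.998). *oskar* and *nanos* correlated with each other at 0.980.

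Within the female abdomens other genes were nearest. Over the deviations of 18 libraries from their group means, *LOC100678898* (r = 0.944), *LOC100120247* (0.939) and *LOC100120608* (0.939) were nearest to *oskar*, and *LOC100122324* (0.917), *LOC100679085* (0.910) and *Rpd3*, a histone deacetylase (0.893), to *nanos*, among 8084 genes. On that CPM scale *oskar* and *nanos* correlated at -0.16, where the TPM values above gave 0.285. The 18 points of each correlation share library depth and tissue content.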

How the data were processed

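Expected counts per gene were deposited by the authors and made with STAR 2.7.11a and RSEM 1.3.1, tools named in the submitters' processing notes. TPM values of the same libraries were also deposited by the authors, for 14613 of the 14621 genes. Libraries were made from poly-A RNA extracted without DNase, per the labels' protocols. Neither build nor annotation is named for them (not given in the sources used here). Symbols and neighbours come from the RefSeq table of assembly Nvit_psr_1.1, which matched 14621 genes. Which spans overlap or neighbour each other was read from that table, and no coordinate is given, since the builds may differ.

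Expected counts were rounded to whole numbers, filtered with filterByExpr, scaled by TMM and fitted in R 4.3.3 with edgeR 4.0.16 (glmQLFit with robust dispersion, glmQLFTest), in 1 fit per tissue and sex, 1 per tissue over both sexes and 1 over female tissues. The Benjamini-Hochberg adjustment ran over every gene tested in a fit, with a threshold of 0.05. Standard errors come from the F statistic. Levels are in TPM, and so is the tested ratio of *nanos* to *oskar*. The ratios of *nanos* to *oskar* counts are set only against the same ratio in other libraries, and likeness between genes was computed on log2(CPM + 1). Alternatives were RLE size factors, no filter, DESeq2 1.42.0, fits of the compared groups alone, limma 3.58.1 on log2(TPM + 1) and log2(TPM + 0.1), A34 kept or A35 also left out, male heads without A1A, A2A and A15A, and each library left out in turn. The ratio of *nanos* to *oskar* was tested by exact permutation of library labels, and correlations with 100000 permutations. Intervals of count ratios are exact binomial ones, and they and the floor of 3 counts cover counting error only, since reads without molecular identifiers are not independent molecules. The test was checked on counts simulated from the mean levels of the female abdomens, and found changes of known size. Every gene was given the same spread there, which was set and not taken from these libraries. That check therefore does not show that differences as small as those of *oskar* in female abdomens would be found.

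The genes named were *oskar*, *nanos*, their neighbours, up to 4 genes per list by lowest adjusted p in F14 minus F2 triploid abdomens, and the 3 genes most like each member, taken from genes with a mean of at least 5 CPM. A gene that this rule names is not reported here. The members, lists and comparisons were chosen with earlier results of these data known.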

Additional observations from a re-analysis of the deposited data

Results flagged for a closer look

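Some libraries stood apart from the others of their group. In F2 2N heads A24 held 25.7 TPM of *oskar*, against 9.44 to 12.2 TPM in the other 4, and 8.49 TPM of *nanos*, against 0 to 0.41 TPM. Among F15 2N male heads A82 held 11.04 TPM of *oskar*, against 6.78 to 7.52 TPM, and A81 held 3.30 TPM of *nanos* where the other 4 were at 0. A34 held 823 TPM of *oskar* and 345 TPM of *nanos*, against at most 34.5 and 15.4 TPM in the other 4 libraries labelled as F2 3N heads, and as a library outside the comparisons it was far above every other head. The gap to the nearest library was over 0.71 of the group's range in each case. Of 20 groups looked at over the 2 genes, 6 gave such a library. The cutoff flags about 1 in 20 groups of normally distributed values, but *nanos* was at 0 counts in most heads. A34 and A24 were each flagged for both genes, and A34 had been set apart before. The 6 are therefore not read against that rate.

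The ploidy difference of *oskar* in male heads changed between generations, by -1.59 on the log2 scale in a test of the change itself.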

How the results depend on the processing

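Values are log2 differences. In female abdomens, *nanos* 3N minus 2N in F14 turned negative with RLE (-0.044), no filter (-0.054), DESeq2 (-0.044), the 2 groups alone (-0.058) and limma on log2(TPM + 1) or (TPM + 0.1) (-0.090, -0.091), and ranged from -0.098 to 0.169 with libraries left out. *oskar* F14 minus F2 in 3N was -0.007 with both limma settings. *oskar* F14 minus F2 in 2N lost its call with no filter (-0.354) and with the 2 groups alone (-0.331). *oskar* in F2 female heads, 3N minus 2N, was -0.080 without A34 and A35. With A34 kept, *oskar* in female heads was -3.034 for the change of the ploidy difference, and lost its call for F14 minus F2 in 2N (-2.597) and for late females minus males (-1.816). *oskar* F14 minus F2 in 3N heads (-2.012) and 2N minus 1N in F3 male heads (1.335) lost their calls with the compared groups alone. *oskar* in male abdomens gained calls with DESeq2 for 2N minus 1N in F15 (-1.492) and its change between generations (-1.888), and with the groups alone for F15 minus F3 in 2N (-1.199).

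With 1 library left out at a time, the ranges of results that changed call or sign were as follows. In female abdomens *oskar* gave 0.221 to 0.407 for 3N minus 2N in F14, 0.445 to 0.647 for its change between generations and -0.563 to -0.376 for F14 minus F2 in 2N. There *nanos* gave 0.206 to 0.472 for the change of the ploidy difference and -0.190 to 0.078 for F14 minus F2 in 3N. *oskar* gave -0.080 to 0.844 for 3N minus 2N in F2 female heads, -1.762 to -0.882 for 2N minus 1N in F15 male abdomens and -2.217 to -1.338 for its change between generations. The log2 ratio of *nanos* to *oskar* gave -0.155 to 0.050 for 3N minus 2N in F2, -0.025 to 0.181 for F14 minus F2 in 2N and -0.373 to 0.016 in 3N. The cause was not tested.

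The other 651 values kept their direction and side of the threshold. The number of genes called moved over 1.5-fold as follows. For ploidy in female abdomens, the 0 genes of F2 became 386 (DESeq2), 24 and 30 (limma on TPM + 1 and + 0.1) and 3 (groups alone), the 6 of F14 became 628, 238, 0 and 20 and 0 with no filter, and the 1223 of the change became 2000 (DESeq2) and 454 (no filter). F14 minus F2 in 3N went from 1162 to 1794 (DESeq2). In female heads, the 639 of F2 became 1177 (DESeq2), 156 (groups alone) and 95 (A34 kept), the 392 of F14 became 974, 196, 0 and 1306 without A34 and A35, and the 711 of the change became 1322 (DESeq2), 0 (A34 kept) and 1197 (without A34 and A35). There F14 minus F2 went from 6285 to 3707 in 2N (A34 kept), and from 2946 to 1106 (groups alone) and 5090 (without A34 and A35) in 3N, and the early sex comparison of heads from 5145 to 3254 (A34 kept). The 484 of F15 male abdomens became 944 (DESeq2) and 52 (groups alone). In male heads, the 1311 of F3 became 687 (groups alone) and 3665 without A1A, A2A and A15A, the 356 of F15 became 680 (DESeq2), 804 (groups alone) and 971 (without those 3), and the 946 of the change became 2706 (without those 3). RLE moved every difference between the sexes' abdomens by -0.233 (early) and -0.157 (late), and between female tissues by -0.200 to -0.151; no filter moved the change of the ploidy difference in female abdomens by -0.144.

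No paired analysis was possible because the labels give each library its own number. Groups of 5, and of 3 in F2 2N abdomens, limit precision, as the 95% intervals show. Counts of *oskar* in heads, 8 to 385, and the 0 to 4 counts of *nanos* in most of them limit any reading of small differences there.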
